A study of Mus musculus with 8 samples.

Results

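A divergent promoter is the stretch of DNA between the start sites of a pair of genes that are transcribed away from each other. Here it was taken as the interval between start sites of 2 different protein-coding genes on opposite strands, with the minus-strand start upstream of the plus-strand start and at most 1000 bp between them. The nearest pair of starts was used for each pair of genes, and the interval was extended by 250 bp on each side. In the GENCODE M1 annotation of the mouse genome build mm9, 1080 such pairs were found. They held 2139 genes, or 9.57% of the 22359 protein-coding genes with an annotated start. The distance between the paired starts ran from 1 to 994 bp, with quartiles at 69, 135 and 271 bp, and the median window was 636 bp long. In all, 20 genes stood in 2 pairs, 10 pairs of gene symbols were listed more than once because the annotation gives a symbol to several gene entries, and joining windows that overlap left 1064. The members were compared with 19175 single promoters, the most upstream start of each gene in no such pair with no start of another protein-coding gene within 2000 bp. A single window ran from 385 bp upstream to 250 bp downstream, so that it had the median length of the divergent windows. A further 1045 genes fell in neither set.

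The study mapped where E2f3 and Myc, both transcription factors, sat on DNA in mouse intestine. It used ChIP-exo, where DNA pulled down with a protein is digested back to the protein's edge and a site is thus placed to within a few bases. Crypt cells and villus cells were taken from control mice, labelled wild type, and from mice in which Rb had been removed by Ah-cre, an inducible Cre active in the intestine. The background of all mice was mixed, from C57BL/6, 129 and FVB/N. The antibodies were Santa Cruz sc-878 X for E2f3 and sc-764 X for Myc. Each of the 8 combinations of tissue, genotype and antibody was 1 list of sites, so that there is no replicate check of any difference between libraries. The sources used here do not give the ages of the mice, the number behind each library, the inducing agent or whether the controls carried the Cre. The E2f3 lists of crypt held 32666 sites (control) and 27396 (Rb-deficient), and those of villus 7405 (control) and 14843 (Rb-deficient). The Myc lists held 159181 and 31397 sites for crypt and 7223 and 4119 for villus, control first. Where 4 values are given below without names, they follow that order of the libraries: crypt control, crypt Rb-deficient, villus control, villus Rb-deficient. Lists of sites hold no expression values, so neither the cell types nor the loss of Rb could be checked in them. Read depth is not known, and intervals on shares are exact 95% binomial intervals that cover counting error only.

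E2f proteins bind promoters of genes for the cell cycle and DNA synthesis. Rb binds E2f proteins and holds them in check until a cell commits to divide, and cells of the villus have normally left the cell cycle, while crypts hold the dividing cells. Myc binds as a dimer with Max, most strongly to the E-box. At a divergent promoter the transcription machinery assembles for both genes within a short stretch of mostly CpG-rich, nucleosome-free DNA, and pairs of this kind are known for many genes of DNA repair, DNA replication and mitochondria.

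The sequences between the starts of 5 pairs show where the sites fell. They were chosen after the values were seen, from named pairs whose best-scored site lay in a gap of at most 300 bp with no other exon. They are the plus strand of mm9, 5′ to 3′, with the bases next to the starts at the ends. Capitals mark an E2F motif in the first 4 and an E-box in the last.
Dclre1a/Nhlrc2: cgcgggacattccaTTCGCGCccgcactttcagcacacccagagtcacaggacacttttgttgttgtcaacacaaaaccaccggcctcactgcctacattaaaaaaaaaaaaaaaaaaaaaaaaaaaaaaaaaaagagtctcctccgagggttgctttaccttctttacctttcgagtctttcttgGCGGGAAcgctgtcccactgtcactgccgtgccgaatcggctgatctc
Mrps12/Sars2: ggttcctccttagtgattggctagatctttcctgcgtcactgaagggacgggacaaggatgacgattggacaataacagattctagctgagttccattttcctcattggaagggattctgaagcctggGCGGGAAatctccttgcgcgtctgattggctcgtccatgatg
Hist1h2ag/Hist1h2bj: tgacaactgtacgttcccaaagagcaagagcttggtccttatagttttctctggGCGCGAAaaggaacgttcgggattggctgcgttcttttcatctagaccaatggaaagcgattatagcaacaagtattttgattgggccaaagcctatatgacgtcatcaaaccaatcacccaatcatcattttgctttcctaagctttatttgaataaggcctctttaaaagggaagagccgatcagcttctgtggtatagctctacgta
Hmmr/Nudcd2: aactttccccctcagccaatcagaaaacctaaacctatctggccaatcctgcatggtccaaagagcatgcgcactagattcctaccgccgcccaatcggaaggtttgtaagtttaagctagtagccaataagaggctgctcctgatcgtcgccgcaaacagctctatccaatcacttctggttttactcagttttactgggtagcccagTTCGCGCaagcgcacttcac
Timm9/2700049A03Rik: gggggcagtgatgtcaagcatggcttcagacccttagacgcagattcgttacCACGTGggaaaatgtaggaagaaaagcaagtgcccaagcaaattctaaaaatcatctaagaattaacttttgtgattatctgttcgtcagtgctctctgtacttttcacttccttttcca

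The intervals lie at chr19:56622517-56622750, chr7:29526840-29527009, chr13:22134819-22135082, chr11:40546940-40547168 and chr12:72237663-72237834, in the order printed. None of them overlaps an annotated exon. Site positions were set 1 bp right of the deposited ones because sites genome-wide then centred on such words. A site on the exact middle base of an E2F word thus partly reflects that choice. In the first 3, the highest-scored E2f3 site of Rb-deficient villus fell on the middle base of an E2F word: base 190 of the Dclre1a/Nhlrc2 gap, in the word at bases 187 to 193; base 132 of the Mrps12/Sars2 gap, in the word at bases 129 to 135; and base 58 of the Hist1h2ag/Hist1h2bj gap, in the word at bases 55 to 61. The gap of Hmmr/Nudcd2 holds 1 E2F word, at bases 210 to 216, next to Nudcd2. Its E2f3 site fell instead at base 8, next to Hmmr. The rule also took Tcf19/Cchcr1 and Larp7/4930422G04Rik, whose gaps are not printed. In Tcf19/Cchcr1 the Rb-deficient crypt site lay at base 70, outside the E2F word at bases 55 to 61. The Larp7/4930422G04Rik gap, with its site at base 135, holds none of the E2F words searched. Of 6 gaps with an E2f3 site, 3 thus had it on a searched word, and other E2F-like sequences were not looked for. In the Timm9/2700049A03Rik gap the Myc site of Rb-deficient crypt fell at base 55, within the E-box at bases 53 to 58.

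Divergent promoters held E2f3 sites more often than single promoters in all 4 E2f3 libraries. In control crypt 227 of 1080 windows had at least 1 E2f3 site, or 21% (95% interval 18.6% to 23.6%), where the share of single promoters was 7.43%. In Rb-deficient crypt the count was 344, or 31.9% (29.1% to 34.7%), against 12.2% of single promoters. Both were the highest shares of their kind among the libraries. In control villus 93 windows had a site, or 8.61% (7.01% to 10.4%), against 2.04%. In Rb-deficient villus 242 did, or 22.4% (20% to 25%), against 7.13%. In crypt the divergent share was 2.83 times the single share for control cells (95% interval 2.49 to 3.21) and 2.62 times for Rb-deficient cells (2.38 to 2.88). In villus it was 4.22 times (3.40 to 5.25) and 3.14 times (2.78 to 3.55).

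The ratios were smaller among CpG-rich windows and larger among the others. By a common definition of a CpG island, GC of at least 50% and a ratio of observed to expected CpG of at least 0.6, 85.7% of divergent windows were CpG-rich, against 41.4% of single windows. Among CpG-rich windows alone the ratio of shares in crypt was 1.49 for control (1.31 to 1.70) and 1.36 for Rb-deficient cells (1.23 to 1.5). In villus it was 2.27 for control (1.81 to 2.84) and 1.63 for Rb-deficient cells (1.44 to 1.85). The divergent share stayed above the single share in each, with intervals above 1. In Rb-deficient villus the 2 shares were then 24.5% and 15.0%. The 154 divergent windows that were not CpG-rich had E2f3 sites less often, in 13.6%, 17.5%, 3.25% and 9.74% of windows, but single windows of that class had them in no more than 2.93%, and the ratios there were 6.41, 5.98, 6.29 and 6.29. A divergent window also has 2 starts. Setting each against 2 single starts with the same length of sequence in all, an alternative chosen after the data were seen, gave ratios of 2.71, 2.40, 4.07 and 2.88 over all windows, and of 1.5, 1.32, 2.27 and 1.57 within CpG-rich windows.

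Fewer of these promoters had Myc sites than E2f3 sites. In control crypt 56 windows had a Myc site, or 5.19% (3.94% to 6.68%), against 4.08% of single promoters. That ratio of 1.27 had an interval of 0.976 to 1.66, which includes 1, and within CpG-rich windows it was 0.928. In Rb-deficient crypt 83 windows had one, or 7.69% (6.17% to 9.44%), against 3.30%, a ratio of 2.33 (1.87 to 2.91). Within CpG-rich windows it was 1.37 (1.09 to 1.73), next to 1.36 for E2f3 in the same cells. In villus there was next to nothing to count. The control villus Myc list had a site in 1 window, or 0.0926%, against 0.0834% of single promoters. The Rb-deficient villus Myc list had none, which allows a share of up to 0.278%, against 0.0834% of single promoters. The control crypt Myc list was the longest of all with 159181 sites, yet only 0.0371% of them lay in divergent windows, where the E2f3 lists had 0.759% to 1.84% of their sites there.

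**Figure D1:**
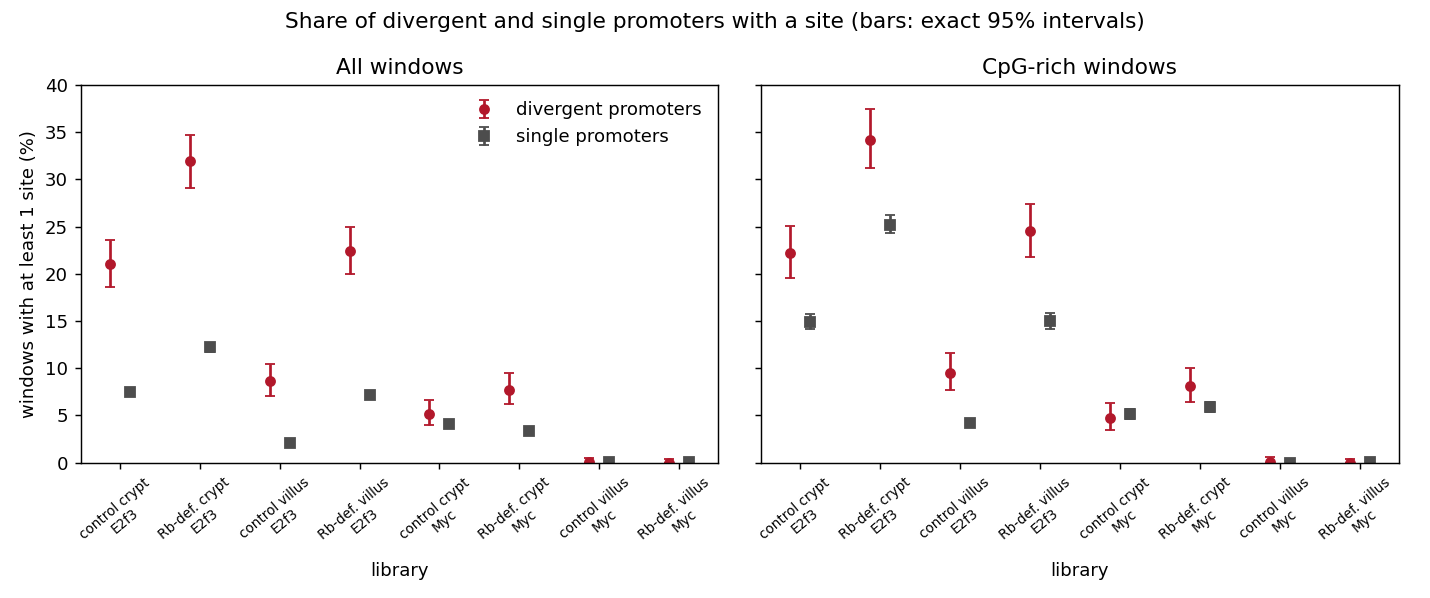
Share of windows with at least 1 site (%, vertical axis) in each of the 8 libraries, for divergent promoters (circles) and single promoters (squares), over all windows (left) and CpG-rich windows (right). Bars are exact 95% intervals for counting error; each point is 1 library, and the divergent shares of all E2f3 libraries and of Rb-deficient crypt Myc lie above the single ones in both panels.

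The E2f3 sites gathered in the gap itself. The bases between the paired starts made up 29.4% of the bases in the windows. In crypt they held 43.0% of control sites (36.8% to 49.4%) and 44.9% of Rb-deficient sites (40% to 49.9%). In villus they held 36.4% of control sites (26.9% to 46.6%) and 40.6% of Rb-deficient sites (34.7% to 46.6%). The interval included the share of bases in control villus and lay above it in the others. In Rb-deficient villus 27.5% lay downstream of the minus-strand start and 31.9% downstream of the plus-strand start. For crypt Myc the gap held 30.5% of control sites (19.2% to 43.9%) and 31.0% of Rb-deficient sites (21.3% to 42.0%). Both intervals included the share of bases. They also overlapped those of crypt E2f3, so the few Myc sites do not tell the factors apart here. Around single promoters the 50-bp bin with most E2f3 sites lay within 100 bp upstream of the start in each library. In control villus the first bin inside the gene was nearly as high, at 0.0532 against 0.0553 sites per kb. Further into the gene the sites thinned out.

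**Figure D2:**
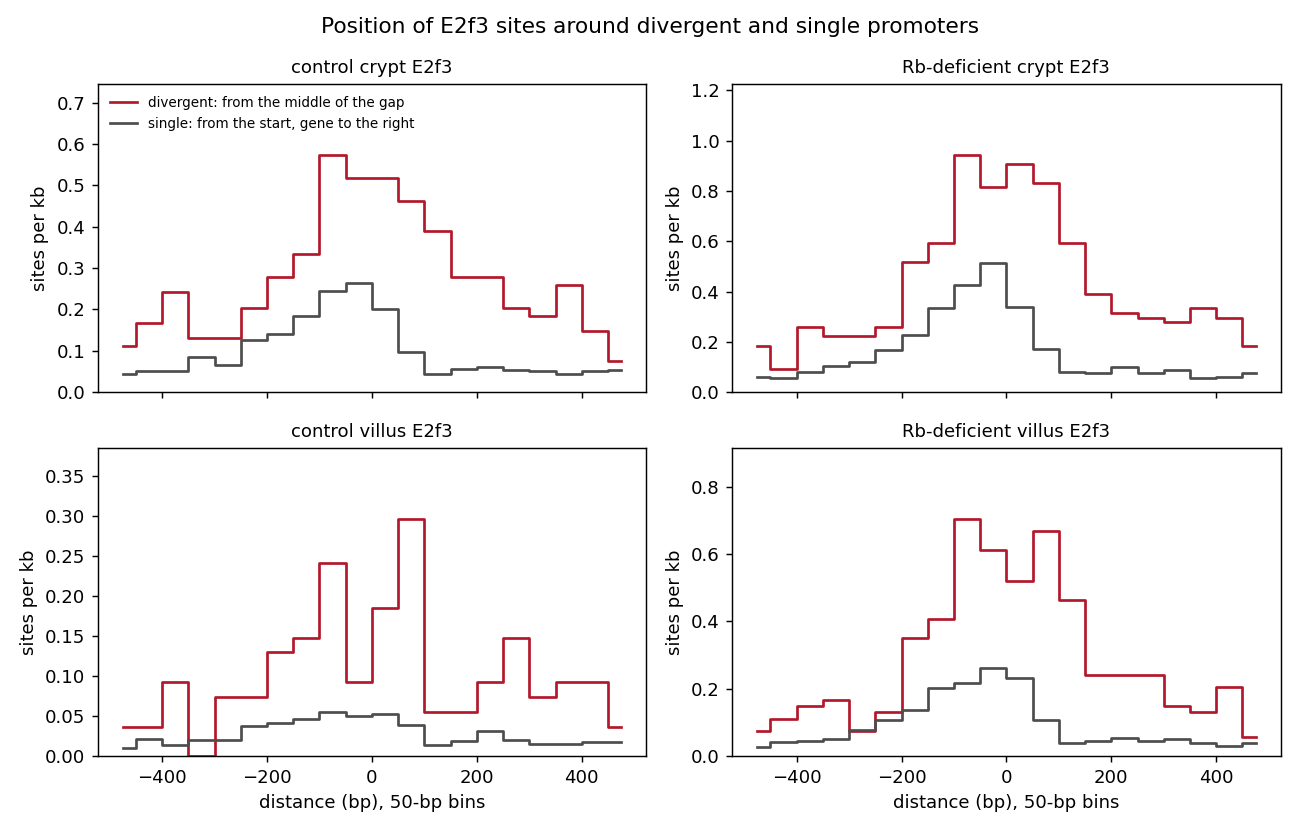
E2f3 sites per kb (vertical axis) in 50-bp bins of distance (bp, horizontal axis), from the middle of the gap at divergent promoters and from the start at single promoters, with 1 panel per library and its own vertical scale. The divergent profile is highest within 100 bp of the middle of the gap and falls on both sides, and the single profile falls off steeply into the gene.

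The share of windows with an E2f3 site varied with the gap. In Rb-deficient villus the share was 19.6% for gaps up to 100 bp (15.9% to 23.8%) and 22.3% for those above that up to 200 bp. It was 30.2% above 200 and up to 300 bp (22.7% to 38.6%), 25.8% up to 500 bp and 19.8% up to 1000 bp, and the intervals of all 5 classes overlapped. In Rb-deficient crypt the share ran from 25.8% (21.7% to 30.3%) in the narrowest class to 41.7% (32.7% to 51%) for gaps above 300 and up to 500 bp, and these intervals did not overlap. Single windows of the same lengths rose only from 11.7% to 13.5% in that library. The widest class was also the least CpG-rich, 61.2% of windows against 85.0% to 90.7% in the others. At the limit of 1000 bp, the 36 pairs with gaps of 804 to 994 bp had an E2f3 site in 13, 14, 6 and 9 windows (36.1%, 38.9%, 16.7% and 25%). The 35 pairs just outside it, with gaps of 1004 to 1182 bp, had one in 10, 12, 2 and 9 (28.6%, 34.3%, 5.71% and 25.7%).

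**Figure D3:**
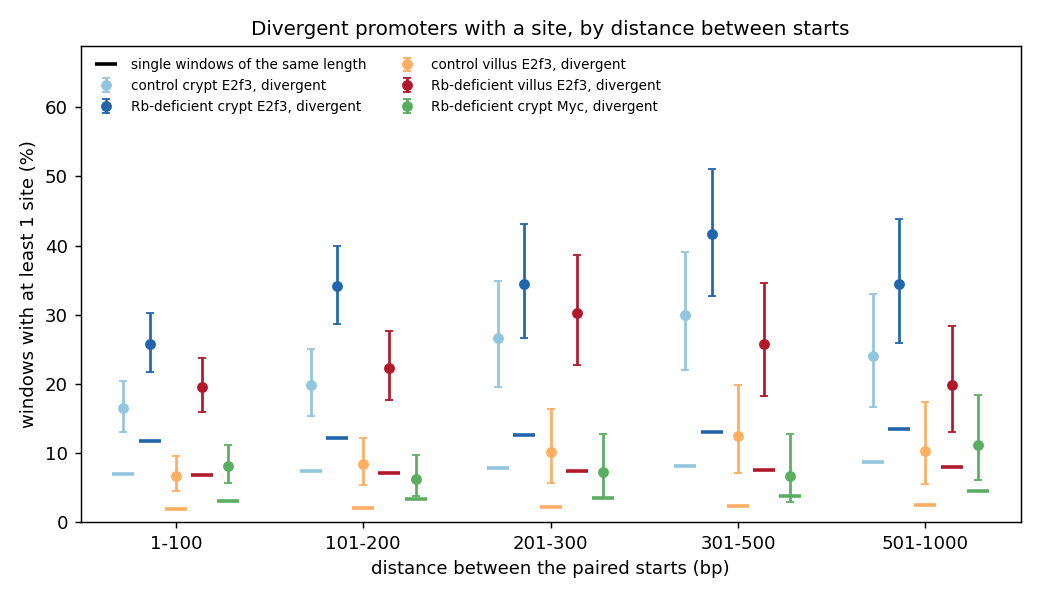
Share of divergent windows with a site (%, vertical axis) by distance between the paired starts (bp, horizontal axis) for 4 E2f3 libraries and Rb-deficient crypt Myc. Circles with exact 95% intervals are divergent windows, short horizontal lines are single windows of the same length in the same library, and all E2f3 circles lie above their lines.

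The sequence under the windows differed in several motifs. The shares were not split by CpG class, and 85.7% of divergent windows were CpG-rich, against 41.4% of single windows. Every E2F, E-box, ETS and NRF1-like word searched holds a CG, so base composition and motif content cannot be told apart here. E2F motifs, searched as TTCCCGC, also as TTCGCGC, then as TTGCCGC and lastly as TTGGCGC, occurred in 39.9% of divergent and 19.6% of single windows. The E-box CACGTG occurred in 17.5% and 12.0%, the ETS word CCGGAAGT in 15.7% and 5.14%, and the NRF1-like word GCATGCGC in 8.61% and 3.97%. CCAAT, the NF-Y word, was equally common in both kinds, 57.6% and 57.0%. The CHR words TTTGAA and TTCGAA, known from promoters of G2 and M phase genes, were rarer in divergent windows, 28.1% against 33.9%. These words were searched on both strands, and matches of different motifs may share bases, as the GCGC of an E2F and of a NRF1-like word can.

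An E2F motif went with E2f3 sites at divergent promoters in every E2f3 library. Of the 431 divergent windows with such a motif, 36.4% had a Rb-deficient villus E2f3 site (31.9% to 41.2%), and of the 649 without one 13.1% did (10.6% to 15.9%). In single windows the same shares were 20.2% and 3.95%. A divergent window thus had a site more often than a single one both with and without the motif, in shares not split by CpG class. The control villus list had the highest share with the motif: 83.9% of its 93 divergent windows with a site held an E2F motif (74.8% to 90.7%), against 60.8% to 66.5% in the other E2f3 lists. For Myc in Rb-deficient crypt a like difference was found for the E-box, with a site in 18.5% of divergent windows that held CACGTG (13.3% to 24.8%) and in 5.39% of the others (4% to 7.08%). In control crypt the Myc shares with and without an E-box were 7.41% and 4.71%, with overlapping intervals.

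Control and Rb-deficient lists of the same tissue differed mostly in one direction. In villus 166 divergent windows, or 15.4% (13.3% to 17.7%), had an E2f3 site in the Rb-deficient list and none in the control list, and 17, or 1.57%, the reverse. Single promoters did so in 5.40% and 0.302%. Both lists had a site in 76 windows. In crypt 150 divergent windows, or 13.9% (11.9% to 16.1%), had a site in the Rb-deficient list alone and 33, or 3.06%, in the control list alone, against 5.88% and 1.14% of single promoters, and 194 had both. These counts moved with the length of the lists. With each list held to its 4119 highest-scored sites, the length of the shortest, 59 windows had a site in Rb-deficient villus alone and 13 in control villus alone, and 45 and 3 in crypt. In villus the Rb-deficient list was the longer one, in crypt the shorter one. With 1 library each, genotype, depth and peak calling cannot be told apart.

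Where both lists had a site, it was mostly at the same base. The best-scored sites of control and Rb-deficient villus lay a median of 0 bp apart, and within 10 bp in 56 of 76 windows, or 73.7%. In crypt 153 of 194, or 78.9%, lay within 10 bp. E2f3 and Myc sites shared windows but mostly not bases: in Rb-deficient crypt 36 windows held both, which is 10.5% of the windows with E2f3 and 43.4% of those with Myc, and their best sites lay a median of 96 bp apart, with 2 within 10 bp. Single promoters gave nearly the same shares, 11.8% and 43.7%, but from lower shares over all windows. In Rb-deficient crypt E2f3 had a site in 31.9% of all divergent and 12.2% of all single windows. Myc had one in 7.69% and 3.30%. The overlap thus stood further above the share over all windows at single promoters than at divergent ones.

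Across the 4 E2f3 libraries, 409 divergent promoters, or 37.9%, had a site in at least 1, against 14.1% of single promoters. The commonest pattern was a site in Rb-deficient crypt alone, in 88 windows (8.15%, against 4.02% of single promoters). Next came 72 windows (6.67%, against 2.66%) with a site in both crypt lists and Rb-deficient villus but not in control villus, and 67 (6.20%, against 1.61%) with a site in all 4. Control villus alone was found in 0 divergent windows and 0.0261% of single ones. Of the 67 windows with all 4, 60 held an E2F motif, or 89.6%. Of the 671 with no E2f3 site, 28.9% did. Counting Myc as well, 621 divergent promoters, or 57.5%, had no site in any of the 8 lists, against 82.1% of single promoters.

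**Figure D4:**
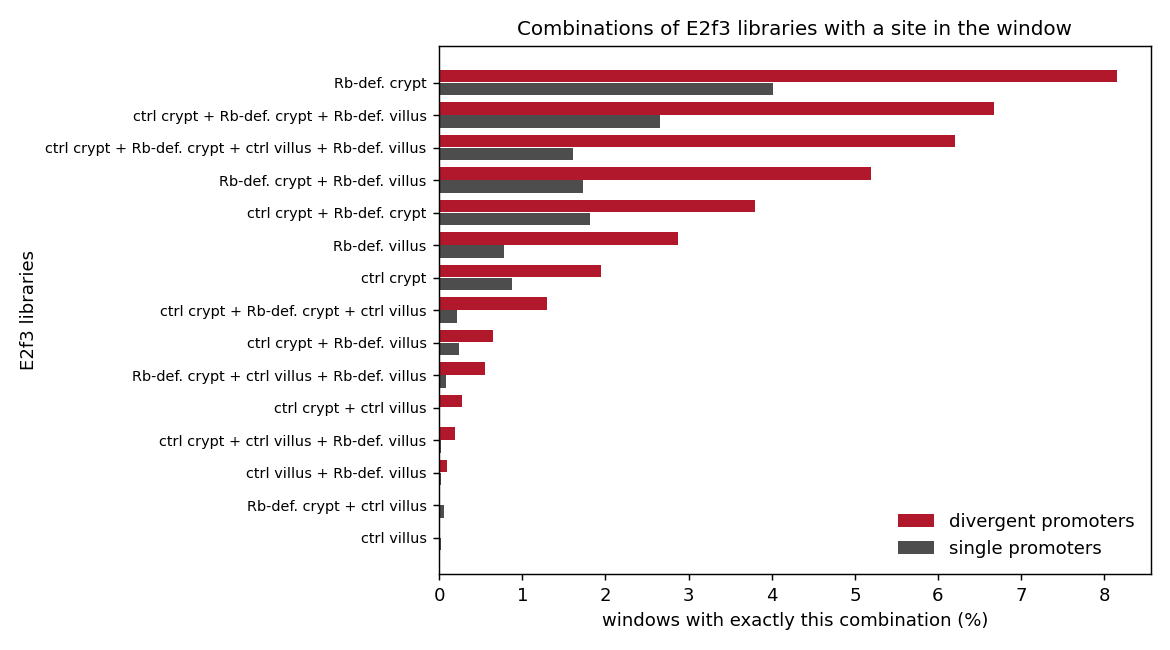
Share of windows (%, horizontal axis) with exactly the given combination of E2f3 libraries, for divergent (upper bars) and single promoters (lower bars). Rb-deficient crypt alone is the commonest combination in both kinds (8.15% and 4.02%), and combinations with control villus but without control crypt reach at most 0.556%.

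Scores describe how strong a site was within its own list. Their scale is not stated, they are capped at 999, and they are given as deposited and not compared between libraries. The best site of a divergent promoter outscored a median of 68.7% (control crypt), 65.3% (Rb-deficient crypt) and 65.2% (Rb-deficient villus) of its list, against 56.9%, 53.3% and 56.0% for single promoters. In control villus the order was the other way, 59.0% and 62.9%. More than 1 E2f3 site in a window was uncommon: 56 windows in Rb-deficient crypt had at least 2, and in 37 of these the sites lay nearer to different starts. In Rb-deficient villus it was 20 of 32.

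The highest score in Rb-deficient villus belonged to Dclre1a/Nhlrc2 (chr19:56622516-56622751). Dclre1a encodes a nuclease for the repair of DNA cross-links. Its E2f3 scores in crypt were 999 (control) and 999 (Rb-deficient), and in villus 208 (control) and 999 (Rb-deficient), so that the site was present in all 4 and at the cap in 3 of them. Mrps12/Sars2 (chr7:29526839-29527010) pairs a protein of the mitochondrial ribosome with the mitochondrial seryl-tRNA synthetase, and scored 999, 999, 55.5 and 190. Mcm4/Prkdc (chr16:15637493-15637959), the pair of a replicative helicase subunit and the catalytic subunit of DNA-dependent protein kinase, had 999, 999, 89.6 and 142, with the site between the starts, 220 bp from Mcm4 and 246 bp from Prkdc. Ranbp1/Trmt2a, where Ranbp1 encodes a partner of the Ran GTPase, had 999, 999, 89.7 and 181, and a weak Myc site of 4.70 in Rb-deficient crypt. Cc2d1a/4930432K21Rik had 310, 999, 81.2 and 153. All of these had a site in every E2f3 list.

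Histone pairs were among the highest too. Hist1h2bf/Hist1h2ad had 135, 265, 34.2 and 182, and Hist1h2ah/Hist1h2bk had 221, 999, 6.52 and 151. Of 14 divergent pairs with a replication-dependent histone gene, 4, 4, 4 and 5 had a site (28.6%, 28.6%, 28.6% and 35.7%). Over all divergent windows the shares were 21%, 31.9%, 8.61% and 22.4%. Histone pairs thus had the lower share in Rb-deficient crypt and the higher one in the other libraries, and the difference was not tested. The 9 without any site in Rb-deficient villus include Hist1h2bq/Hist1h2ao and Hist1h2ap/Hist1h2br. These genes are near-identical copies of each other, so reads may not map to one of them, and how far that set the values was not tested.

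The 8 highest-scored pairs with a site in Rb-deficient villus and none in control villus include 4 of the 16 pairs on the list of G2 and mitosis genes. These 8 were picked by score from 166 such windows, which were 15.4% of all 1080 divergent windows. Whether listed genes were more common among the 8 than among the 166 was not tested. Hmmr/Nudcd2 (chr11:40546939-40547169), where Hmmr encodes a spindle protein, scored 101.1 in control crypt, 999 in Rb-deficient crypt and 150 in Rb-deficient villus. Zfpl1/Cdca5, where Cdca5 encodes sororin, which holds sister chromatids together, had 73.2, 243 and 114. Ift80/Smc4 and Ncapd2/Mrpl51 each hold a condensin subunit, Smc4 and Ncapd2, and had 78.5, 229 and 90.1, and 94.7, 266 and 64.9. Each of these pairs thus had a site in both crypt lists and was missing, among the E2f3 lists, from control villus only. The same pattern held for Cks1b/Shc1 (35.8, 224 and 92.8), where Cks1b encodes a small subunit of cyclin-dependent kinases, and for Cdc45/Ufd1l (133, 179 and 65.6), where Cdc45 is part of the replicative helicase. It also held for Mastl/Yme1l1 (58.1, 184 and 56.3), where Mastl is the Greatwall kinase of mitotic entry, and for Mospd2/Fancb (28.2, 140 and 49.3), where Fancb belongs to the Fanconi anemia core complex.

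In the reverse direction in villus, the 5 highest-scored of the 17 windows were these. Rnf121/Trpc2 had 181 in control crypt, 210 in Rb-deficient crypt and 95.4 in control villus, with no site in Rb-deficient villus. Syngr4/Tmem143 had 164, 184 and 35.8, Tmtc3/Cep290 28.4, 23.3 and 15.7, Acin1/1700123O20Rik 7.47, 7.20 and 23.9, and E130303B06Rik/4933405L10Rik 22.8, 35.9 and 13.6. All 5 had a site in both crypt lists, and none is on a cell cycle or repair list. The 17 windows also include 2 pairs that are, Atm/Npat and Rad51ap1/D6Wsu163e, at 3.71 and 6.33 in control villus.

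In crypt, high scores with a site in Rb-deficient cells alone were found at Tmem111/Fancd2 (90.9), where Fancd2 is a Fanconi anemia protein, Mcm7/Ap4m1 (68.8), where Mcm7 is a helicase subunit, Skiv2l2/Dhx29 (61.4), a pair of RNA helicases, and Tcf19/Cchcr1 (61). These 4 also had a site in Rb-deficient villus, with scores of 24.1, 37.2, 15.9 and 11.9. Tcf19/Cchcr1 had one in control villus as well, so it was absent from the control crypt list alone. The reverse set was led by Cbx5/Hnrnpa1, where Cbx5 encodes the heterochromatin protein HP1 alpha, with 65.7 in control crypt and none in Rb-deficient crypt. In villus it had 12.1 (control) and 31.5 (Rb-deficient). It was followed by Mrpl43/Peo1 (30.8), Tor1aip1/Tor1aip2 (19.9) and Cox15/Cutc (15.5).

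Pairs with a gene for the cell cycle or DNA repair had E2f3 sites more often than the other divergent pairs. Of 61 pairs on 5 lists of such genes, 45.9%, 68.9%, 18% and 57.4% had a site in the 4 libraries, and of the other 1019 pairs 19.5%, 29.6%, 8.05% and 20.3%. The intervals of both sets overlapped in control villus (9.36% to 30.0% and 6.45% to 9.89%) and not in the other libraries. The other pairs were themselves above single promoters, with ratios of 2.63, 2.43, 3.95 and 2.85. Within the 61, the best site lay nearer to the listed gene than to its partner in 24 of 26, 36 of 40, 9 of 9 and 31 of 34 pairs with a site and 1 listed gene.

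Over all divergent windows the E2f3 shares were 21%, 31.9%, 8.61% and 22.4%. By list, 12, 16, 6 and 11 of 19 pairs with a gene of DNA replication had a site (63.2%, 84.2%, 31.6% and 57.9%). The 6 in control villus were Mcm4/Prkdc, Wdhd1/Socs4, Pole3/4933430I17Rik, 1300017J02Rik/Topbp1, Prim2/1700001G17Rik and 6330408A02Rik/Lig1, which hold genes for replication fork proteins, polymerase or primase subunits and DNA ligase. For G2 and mitosis the counts were 7, 10, 1 and 10 of 16 (43.8%, 62.5%, 6.25% and 62.5%). The 1 pair in control villus (6.25%, against 8.61% of all divergent windows) was Ppwd1/Cenpk, at 2.66. In Rb-deficient villus the same shares were 62.5% and 22.4%. Foxm1, a transcription factor for mitotic genes, is paired with 5930416I19Rik, which had 33.1 (control) and 104 (Rb-deficient) in crypt and 40.3 in Rb-deficient villus but no control villus site. For DNA repair the counts were 8, 14, 5 and 13 of 24 (33.3%, 58.3%, 20.8% and 54.2%). These counts are small, and the difference between lists was not tested.

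**Figure D5:**
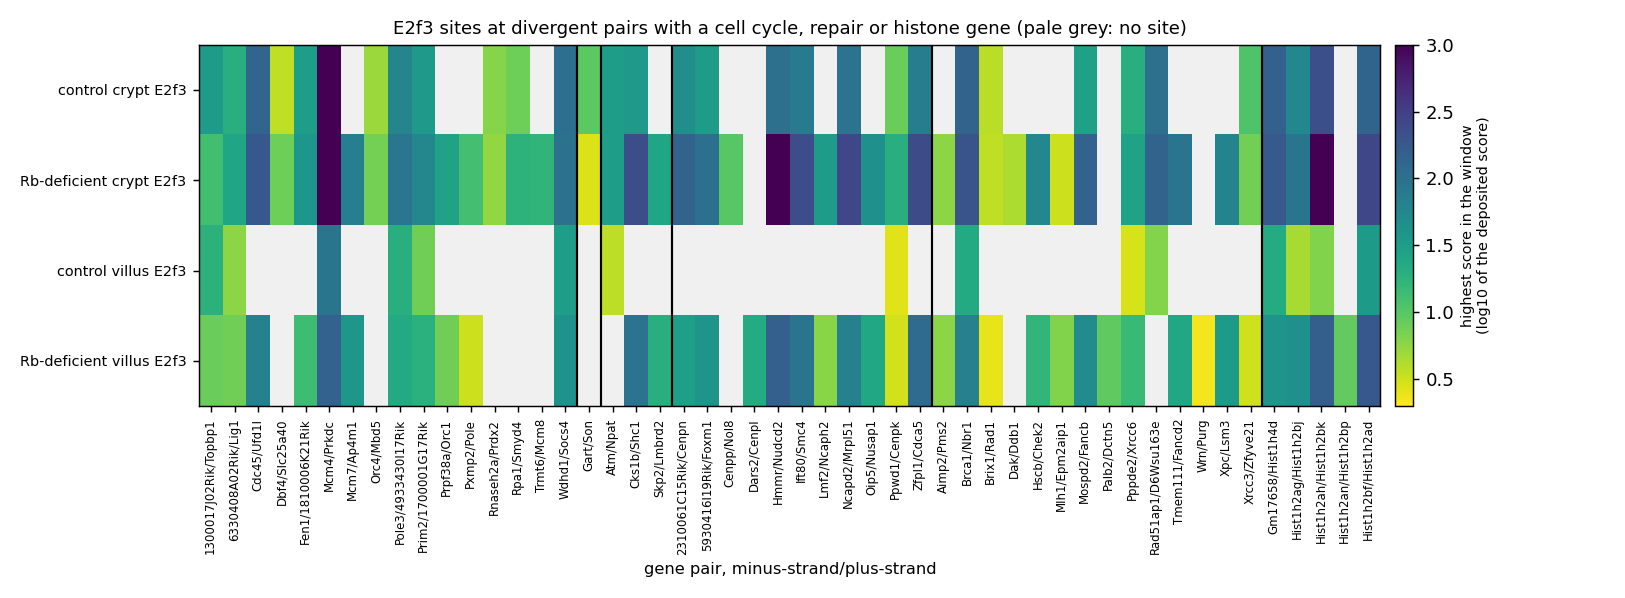
Highest E2f3 score in the window (log10 of the deposited score, colour) for 50 divergent pairs with a listed gene and a site in at least 1 E2f3 library, 1 row per library. Vertical lines separate, from left, replication, S-phase nucleotides, regulators of G1 and S, mitosis, repair, and histones, and grey is no site. The control villus row is mostly grey. That list is the shortest E2f3 list, and pairs without a site in any E2f3 library are left out. Scores are not comparable between rows.

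The other gene groups are given beside the shares of all divergent pairs, which were 21%, 31.9%, 8.61% and 22.4% for E2f3. For Myc in Rb-deficient crypt the share of all divergent pairs was 7.69%. Differences between groups were not tested, and the counts are small. Genes of nuclear-encoded oxidative phosphorylation had 22 pairs, of which 1, 5, 0 and 1 had an E2f3 site (4.55%, 22.7%, 0% and 4.55%). Ribosome biogenesis had 14 pairs with 0, 0, 0 and 1 (0%, 0%, 0% and 7.14%). Of these 14, 2 had a Myc site in Rb-deficient crypt (14.3%), among them Gnl3/Pbrm1 at 19.3, where Gnl3 encodes nucleostemin. The 23 pairs with a mitochondrial ribosomal protein had E2f3 sites in 10, 9, 5 and 10 (43.5%, 39.1%, 21.7% and 43.5%). The 10 pairs with an aminoacyl-tRNA synthetase had them in 3, 5, 4 and 5 (30%, 50%, 40% and 50%). Of these 10, 3 had a Myc site in Rb-deficient crypt (30%). Of 13 pairs with a cytosolic ribosomal protein, 2, 4, 1 and 3 had one (15.4%, 30.8%, 7.69% and 23.1%), led in Rb-deficient villus by Iqcg/Rpl35a at 31.6. Of 9 proteasome pairs, 2 had a site in Rb-deficient villus.

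Of the 8 pairs with the highest Myc scores in Rb-deficient crypt, 3 also had an E2f3 site in at least 1 list. That is close to the share of all divergent windows, 37.9%. The highest score in Rb-deficient crypt was at Gm10655/Tle3 (122, and 999 in control crypt), where Tle3 is a Groucho corepressor. This was the window with the control villus Myc site, at 8.84, and it had E2f3 sites in all 4 lists. Mttp/Rg9mtd2 (chr3:137806352-137806412), where Mttp loads lipid onto lipoproteins in enterocytes, had 38.1 (control) and 70.3 (Rb-deficient) in crypt, and no E2f3 site. Slc16a6/Arsg had 34.0 and 68.8, and Aurka/Cstf1, where Aurka is the mitotic kinase Aurora A, 23.0 and 56.7, likewise without E2f3. The Rb-deficient crypt Myc site of Aurka/Cstf1 lay 250 bp downstream of the Cstf1 start and 396 bp from the Aurka start. That of Mttp/Rg9mtd2 lay 207 bp downstream of the Rg9mtd2 start and 267 bp from the Mttp start. Ears2/Ubfd1 (46.7), Pigw/Myo19 (41.4) and Timm9/2700049A03Rik (33.3) had a Myc site in Rb-deficient crypt only, and Ears2 and Timm9 serve mitochondrial protein synthesis and import. D17H6S56E-5/Vars, with the valyl-tRNA synthetase gene, joined both factors: 310, 270, 71.6 and 93.5 for E2f3 and 45.5 for Myc in Rb-deficient crypt. In all, 6 divergent windows had a site in all 4 E2f3 lists and in the Rb-deficient crypt Myc list, which besides Gm10655/Tle3, Ranbp1/Trmt2a and D17H6S56E-5/Vars were Larp7/4930422G04Rik, Pole3/4933430I17Rik and Mrpl18/Tcp1.

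Of 16 well-known gene pairs looked up by name, 11 met the rule. Brca1/Nbr1 had 140, 200, 22.4 and 66.7 for E2f3, with the villus site 17 bp from the Brca1 start and 253 bp from Nbr1. Atm/Npat, of a damage kinase and a histone gene activator, had 31.1 and 30.5 in crypt and 3.71 in control villus. Fen1/1810006K21Rik, with the flap endonuclease of replication, had 30.4, 38 and 13.9 in both crypt lists and Rb-deficient villus. Hspd1/Hspe1, the mitochondrial chaperonins, had 17.6 and 20.7, in crypt only. Gart/Son, with a purine synthesis enzyme, had 9.58 and 2.80 in crypt and a Myc site of 6.27, and Wrap53/Trp53 had a Myc site of 9.67 alone, both in Rb-deficient crypt. Surf1/Surf2 and Usp5/Cdca3 had no site in any list.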

How the data were processed

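ChIP-exo site lists of 8 libraries, 1 per group, were used. Per the submitters' processing notes, reads were handled with Bowtie2 2.2.1 and MACS2 2.0.10 on mm9. The names of the deposited files speak of GEM events with an overlap to MACS2 peaks, of merging and of kept duplicates. The sources used here do not give the GEM version, the thresholds or what was merged. The value used is the score deposited by the authors for each site, from 2 to 999, whose scale is not stated. Retained duplicates and a score ceiling can affect which sites were called and their order.

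Start sites came from protein-coding transcripts of GENCODE M1 on NCBIM37, which is mm9. Sites on contigs outside that reference were not used. Deposited positions were moved by 1 bp, because sites with an E2F word lay a median of 1 bp from its middle on either strand. Windows, motifs and counts were computed with Python 3.11.15, numpy 2.4.6, pandas 2.3.3 and pysam 0.24.0. Intervals of shares are exact Clopper-Pearson 95% intervals (scipy 1.17.1), those of ratios use the log method, and the limit for a count of 0 is 3 counts. Windows of neighbouring pairs can overlap, so they are not fully independent. The counting was tested on simulated starts and sites. With 1 library per group, no test between libraries was made.

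The pairs, the 19 gene lists and the comparisons were chosen with earlier results of these data known. Pairs were named by rule: the highest scores in Rb-deficient villus E2f3 and Rb-deficient crypt Myc, the highest with a site in only 1 genotype of a tissue, pairs with sites in all 4 E2f3 lists and Rb-deficient crypt Myc, the 3 highest of each list with at least 3 pairs, and a fixed set of textbook pairs. Other pairs are named where a small count is spelled out, after their values were seen. Some pairs that the rule names are not reported here. Alternatives changed the gap, the extension, the transcripts, the sites kept, the joining of windows, the CpG class, the single start and the window centre.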

Additional observations from a re-analysis of the deposited data

How the results depend on the processing

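The ratio of the divergent to the single share was recomputed for the 4 E2f3 and both crypt Myc libraries, and the counts of windows with a site in 1 genotype for E2f3. Of the alternatives to these main results, 75 stayed within the interval of the ratio or within 1.5 times the count, and 23 moved. The control crypt Myc ratio, whose interval includes 1, went from above 1 to below it in CpG-rich windows, and no other ratio crossed 1. With each list held to 4119 sites, the ratios for E2f3 were 3.5 (control crypt), 3.38 (Rb-deficient crypt) and 3.56 (Rb-deficient villus), and 3.06 for Myc in Rb-deficient crypt. That Myc ratio rests on 0.926% of divergent windows, against 5.93% to 9.81% for those E2f3 lists. The windows with a site in the Rb-deficient list alone then numbered 59 in villus and 45 in crypt. With the sites of each list above its median score the ratios were 3.23, 3 and 3.56 for E2f3 and 1.7 in control crypt for Myc, with 108 and 81 windows. In CpG-rich windows the ratios were 1.49, 1.36, 2.27 and 1.63 for E2f3 and 0.928 and 1.37 for Myc, and in CpG-rich windows against 2 single starts 1.5, 1.32, 2.27 and 1.57 for E2f3 and 1.5 in Rb-deficient crypt for Myc. The last alternative, the widest pair of starts, 2 single starts over all windows and leaving out the cell cycle and repair pairs were chosen after seeing the data. Beyond the construction of each alternative, the cause was not tested. Villus Myc ratios rest on 1 and 0 windows and were not recomputed. No paired analysis was possible because each group has 1 library, and no replicate could be left out. Depth is unknown, so a missing site says only that none was listed.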
